A study of Mus musculus with 3 samples.

Results

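Serpina3n (ENSMUSG00000021091), 1 gene of the 31053 in the count files, was followed across the cell classes of the mouse dorsal root ganglion (DRG) before and after nerve injury. It was chosen by its measured values, namely its higher level in satellite glial cells (SGCs) of the injured libraries, so its levels are given as a description, with no test. The gene encodes a secreted serine protease inhibitor (serpin), a mouse counterpart of human alpha-1-antichymotrypsin, and belongs to a cluster of related Serpina3 genes that is expanded in rodents. Its protein inhibits proteases of leukocytes such as neutrophil elastase and granzyme B. The transcript is widely used as a marker of reactive astrocytes in the brain, and in the DRG it has been linked to neuropathic pain. SGCs are the glia that wrap the cell bodies of sensory neurons, and they share several functions and markers with astrocytes.

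Cells of the L3 and L4 DRGs from both sides were measured in 3 libraries, each a pool of 8 DRGs from 2 male C57BL/6J mice, wild-type and 13 weeks old. The naive library came from untreated mice without sham surgery, and the other libraries came from mice 7 and 14 days after spared nerve injury on both sides, as labelled (the paper's text names the model of these data as partial ligation of the sciatic nerve in a passage and as spared nerve injury in another, and its methods list female mice). Whole DRGs were dissociated with collagenase and dispase, and transcripts were counted in droplets (10x Chromium, 3′ chemistry) as unique molecular identifiers (UMIs), so that PCR copies of a molecule count once. Sequencing gave 23107376 UMIs over 3748 cell barcodes in the naive library, 22343246 over 3281 at 7 days, and 36550911 over 4908 at 14 days. With 1 library per condition there was no test between conditions, and the condition cannot be told apart from the pool of mice or the library. Cell barcodes shared between libraries numbered 1 for naive and 7 days, 6 for naive and 14 days, and 2 for 7 and 14 days, and no pair of them was SGC-like with Serpina3n in both libraries.

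Serpina3n lies on the plus strand at chr12:104406729-104414329 (mm10), with 5 exons and 1 annotated transcript of 2064 bases, of which 1254 are coding. Its neighbours are Serpina3m, which ends 12471 bases upstream, and Gsc, 56879 bases downstream, and 0 annotated genes overlap it. Reads of a 3′ library come mostly from the end of the transcript, so the stretches that Serpina3n shares with its relatives were counted. Of its 2015 stretches of 50 bases, 139 (6.90%) were found in another gene, most often in Serpina3e-ps (54) and Serpina3g (51). In the last 500 bases, 0 of 451 stretches were shared, so that reads from the transcript's end were distinct from those of the relatives.

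Barcodes needed 500 or more genes and a mitochondrial share of UMIs of 20% or less, and 29, 32 and 29 cells marked by a doublet caller were left out. This left 3123 naive cells (median 3059 UMIs), 2650 cells at 7 days (median 3972 UMIs) and 3799 cells at 14 days (median 4174 UMIs). Clusters were named from fixed marker genes as SGC-like, neuron-like and so on, so the names are a reconstruction and need not match the authors' own. The SGC-like class numbered 774, 483 and 699 cells in the naive, 7-day and 14-day libraries. Their 8 SGC markers (Fabp7, Kcnj10, Slc1a3 and others) summed to 12730, 13069 and 11339 CPM (UMIs of a gene per 10⁶ UMIs of the cells), with Fabp7 the most abundant in each library and none at 0. In the same order of libraries, which is kept throughout, neuron-like cells numbered 129, 116 and 147, non-myelinating Schwann-like cells 154, 101 and 209, and fibroblast-like cells 85, 71 and 174.

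Over all kept cells, Serpina3n gave 1363, 1539 and 3637 UMIs, or 65.0, 78.4 and 114 CPM. Neuron-like and SGC-like cells together held most of these UMIs in every library, and their proportions differed between libraries. Neuron-like cells, 4.13%, 4.38% and 3.87% of the cells, contributed 81.4%, 67.5% and 62.9% of the Serpina3n UMIs. SGC-like cells contributed 15.8%, 24.6% and 27.4% of the UMIs. Counted by cells with at least 1 Serpina3n UMI, however, SGC-like cells were the most numerous class, with 46.5%, 48.1% and 50.6% of such cells, against 39.8%, 23.7% and 20.6% for neuron-like cells. Cells with a UMI numbered 102, 70 and 120 in the neuron-like class and 119, 142 and 295 in the SGC-like class. Neuron-like cells were far deeper in the naive library (median 63705 UMIs, against 5188 in SGC-like cells), and molecules per cell go with depth.

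The order of neuron-like, SGC-like, non-myelinating Schwann-like and fibroblast-like cells by Serpina3n CPM differed between the libraries. It is given here with exact 95% Poisson intervals, which like all intervals below cover counting error only. Red blood cell-like barcodes and the remaining classes are given further below. In the naive library neuron-like cells were highest at 130 CPM (123 to 138), followed by non-myelinating Schwann-like cells at 70.1 (43.4 to 107), SGC-like cells at 41.5 (36.1 to 47.4) and fibroblast-like cells at 39.0 (19.5 to 69.8). The interval of the neuron-like cells stood apart from the rest, whereas the other 3 classes overlapped with their neighbours in the order. At 7 days the order was neuron-like 161 (151 to 171), fibroblast-like 125 (88.2 to 173), non-myelinating Schwann-like 102 (66.4 to 149) and SGC-like cells 90.0 (81.1 to 99.5). Each of these overlapped with its neighbour, but neither SGC-like nor non-myelinating Schwann-like cells overlapped with neuron-like cells. At 14 days non-myelinating Schwann-like cells were highest at 226 CPM (194 to 263), followed by neuron-like cells at 181 (173 to 188), SGC-like cells at 173 (162 to 184) and fibroblast-like cells at 149 (124 to 177). Here non-myelinating Schwann-like cells stood above the other classes, and neuron-like, SGC-like and fibroblast-like cells overlapped. However, a single non-myelinating Schwann-like cell held 36 of the 173 UMIs, and without it the class was at 183 CPM (153 to 216), which overlaps with neuron-like cells. At 14 days SGC-like and non-myelinating Schwann-like cells thus no longer lay below neuron-like cells beyond counting error, as they had in the naive library.

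**Figure D1:**
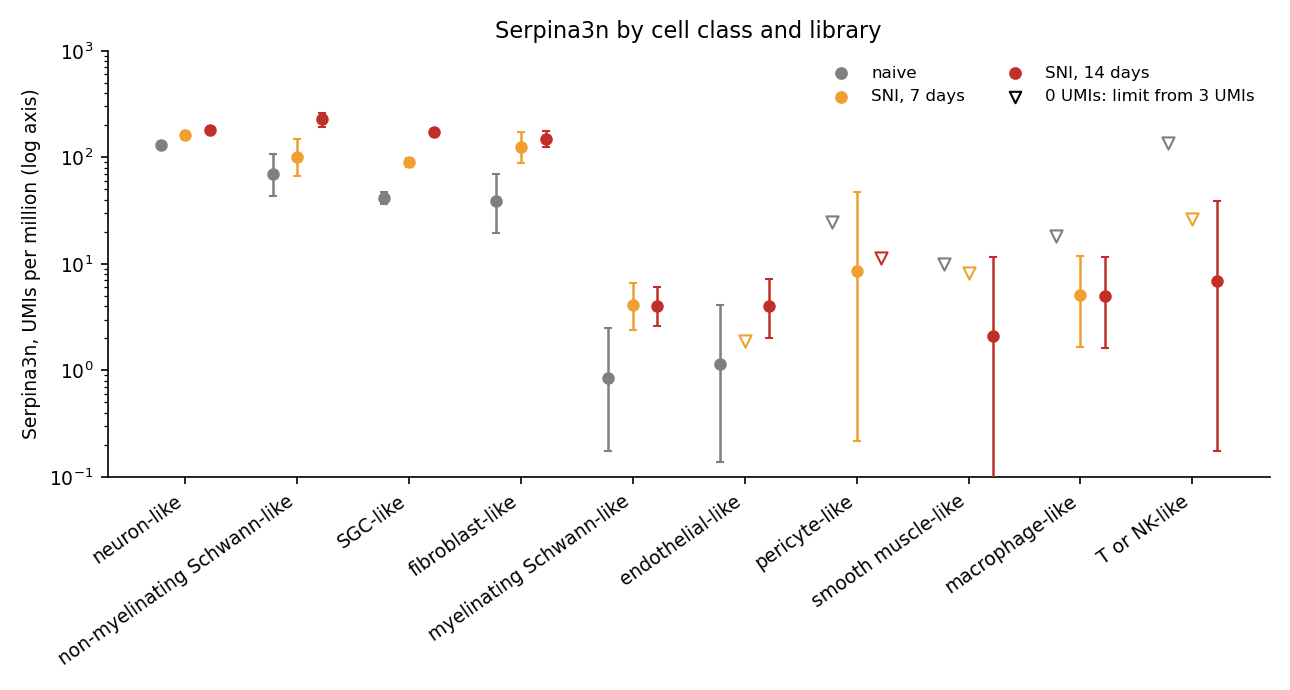
Serpina3n CPM (log axis) in 10 cell classes of the naive, 7-day and 14-day libraries; points are class totals, bars the exact 95% Poisson interval, and open triangles the limit that 3 UMIs set where a class had 0. Neuron-like, non-myelinating Schwann-like, SGC-like and fibroblast-like cells lie between 39.0 and 226 CPM, and the points of the other 6 classes shown lie below 10 CPM.

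SGC-like cells held 215, 378 and 995 Serpina3n UMIs, or 41.5, 90.0 and 173 CPM, in the naive, 7-day and 14-day libraries, and the 3 intervals did not overlap. The level at 7 days was 2.17-fold that of the naive library (exact conditional binomial interval 1.83 to 2.58), and the level at 14 days 4.17-fold (3.59 to 4.85). From 7 to 14 days the ratio was 1.92 (1.70 to 2.17). These intervals describe values by which the gene was chosen and are no test of a difference between conditions. Serpina3n had a UMI in 15.4% (exact Clopper-Pearson interval 12.9% to 18.1%) of SGC-like cells in the naive library, 29.4% (25.4% to 33.7%) at 7 days and 42.2% (38.5% to 46.0%) at 14 days. Median depths of these cells were 5188, 7187 and 6849 UMIs. After thinning each cell to 2000 UMIs, with 54, 7 and 16 shallower cells left out, 6.69%, 11.4% and 21.2% had a UMI, so the order was that of the CPM. Endothelial, mural and immune-like cells were pooled as a possible gauge of free RNA, although the source of Serpina3n in them was not tested. Their share was 0.378%, 1.05% and 2.01% at median depths of 3091, 4142 and 3869 UMIs, and after thinning 0.0762%, 0.577% and 0.639%.

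The rise in SGC-like cells lay both in the number of cells with Serpina3n and in the molecules per cell. SGC-like cells with at least 2 Serpina3n UMIs numbered 44, 71 and 185, or 5.68%, 14.7% and 26.5% of the class. Those with at least 5 numbered 9, 18 and 67, and those with at least 10 numbered 0, 4 and 18. The highest count in a cell was 7, 26 and 25 UMIs, and the mean per cell with a UMI was 1.81, 2.66 and 3.37. The 5 cells with the most Serpina3n held 14.4%, 25.4% and 11.1% of the UMIs of the class, so a small set of cells weighed most at 7 days. When each cell with a UMI was counted once and set over all UMIs of the class, the log2 ratios over naive were 0.56 and 1.16 at 7 and 14 days. By all Serpina3n UMIs they were 1.12 and 2.06. The divisor grows with depth, so these are not ratios of the shares of cells with a UMI, which were 15.4%, 29.4% and 42.2%.

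**Figure D2:**
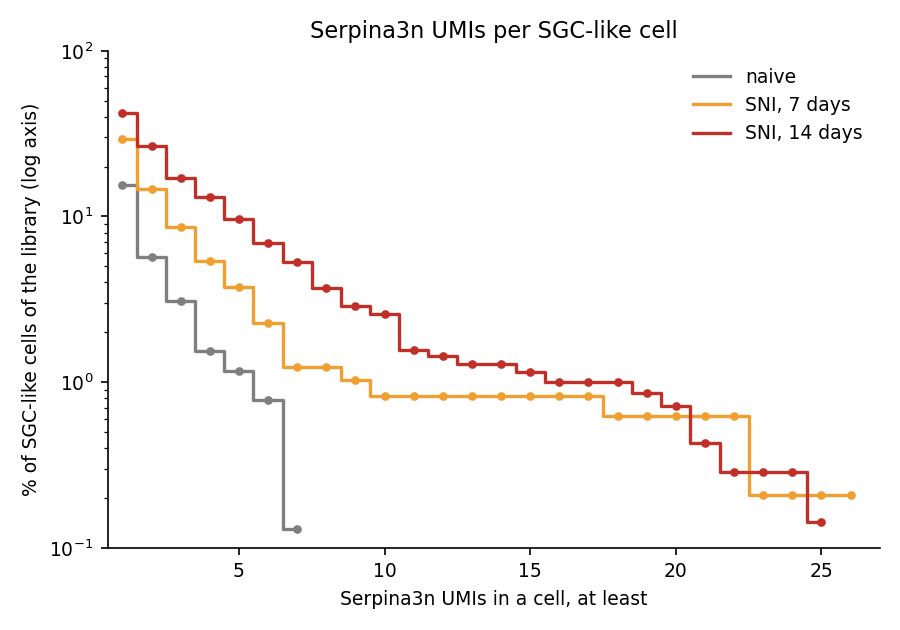
Share of SGC-like cells (percent, log axis) with at least the number of Serpina3n UMIs on the x axis, for the naive, 7-day and 14-day libraries, without error bars. The curves start at 15.4%, 29.4% and 42.2% for 1 UMI, and the highest counts are 7, 26 and 25 UMIs.

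The SGC-like class was made of 4 clusters with different levels of Serpina3n. The cluster led by Egr3 and 4930469K13Rik, which also had Ednrb among its leading genes, was the lowest, with 13.2, 25.5 and 67.6 CPM in 329, 225 and 350 cells. Its share with a UMI was 4.56%, 12.9% and 21.7%. Higher levels were found in the cluster led by 2900052N01Rik and Hes5, whose leading genes include Aqp4 and Cdh15, with 58.9, 109 and 257 CPM in 188, 129 and 147 cells, and 71.4% of its cells had a UMI at 14 days. Rlbp1 and Mapk4 led a cluster that went from 20.6 CPM, which overlapped with the Egr3-led cluster, to 125 at 7 days and 229 at 14 days in 94, 92 and 175 cells. Its ratio at 14 days over naive was 11.1 (6.43 to 21.1), against 4.36 (3.53 to 5.43) in the cluster led by 2900052N01Rik and 5.13 (3.32 to 8.25) in the Egr3-led cluster, and the difference between these ratios was not tested. Its naive level rests on 13 UMIs in 13 cells, none of which had more than 1.

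The remaining SGC-like cluster was led by the interferon-response genes Ifit3b and Ifi27l2a. It had 78.5 CPM (60.9 to 99.5) in the naive library, the highest naive value of the 4 clusters, then 277 (216 to 351) at 7 days and 221 (149 to 315) at 14 days. The last 2 values rest on 37 and 27 cells, and 5 cells held 87.0% and 86.7% of the UMIs in them. From 7 to 14 days the ratio was 0.796 (0.501 to 1.24), an interval that includes 1. The difference from the other clusters over time was not tested. This cluster made up 21.1% of the naive SGC-like cells but 7.66% and 3.86% of those at 7 and 14 days. Without it, Serpina3n in SGC-like cells was 34.03, 78.2 and 172 CPM, and the ratios over naive were 2.30 (1.88 to 2.82) and 5.04 (4.24 to 6.04). Serpina3n was higher at 14 days than in the naive library in each of the 4 clusters, with intervals of the ratio above 1. The clusters are parts of the class by which the gene was chosen, so these intervals describe its values and are no test.

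**Figure D3:**
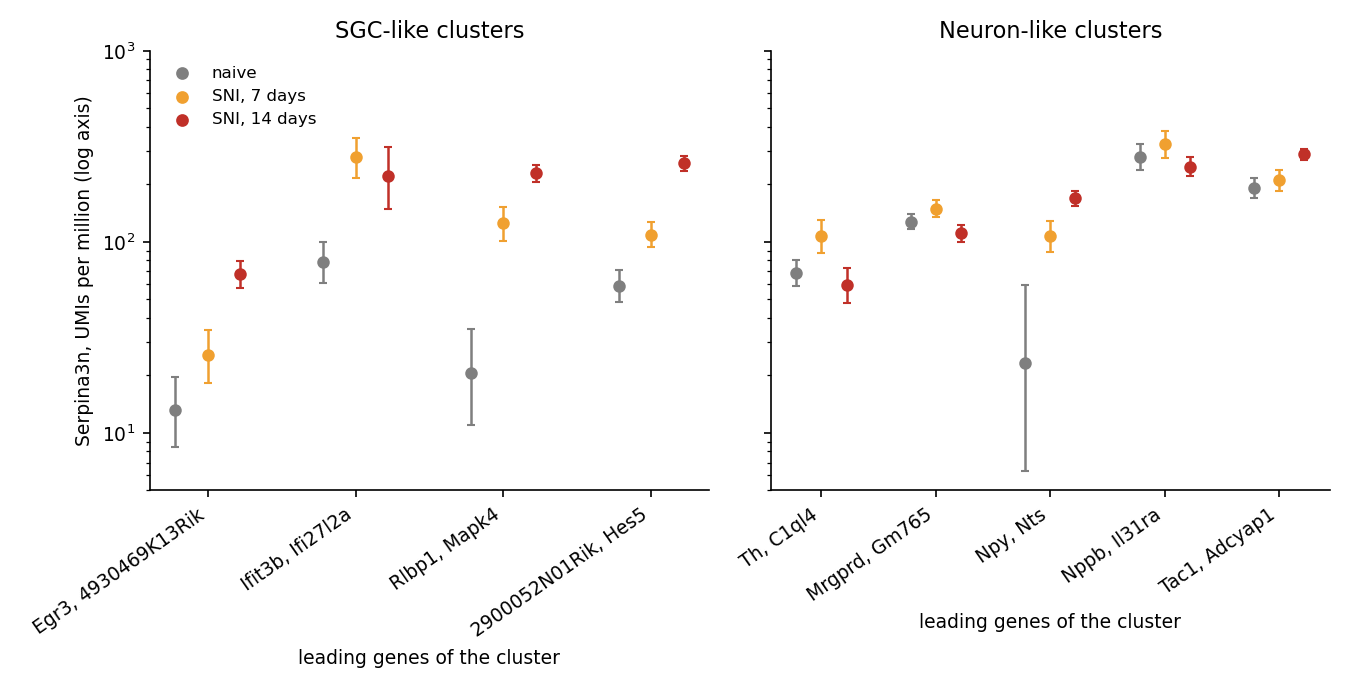
Serpina3n CPM (log axis) in the 4 SGC-like clusters and the 5 neuron-like clusters, named by leading genes, for the naive, 7-day and 14-day libraries, with exact 95% Poisson intervals as bars. In each SGC-like cluster both injured libraries lie above the naive library, whereas among neuron-like clusters those led by Th, Mrgprd and Nppb have their 14-day point below the naive one.

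Markers of other classes, which were measured in SGC-like cells beside Serpina3n, also differed between libraries. The 10 neuron markers, none at 0 and led by Nefl in the naive and Tubb3 in the injured libraries, summed to 139, 163 and 203 CPM in SGC-like cells, against 11687, 13404 and 13894 CPM in neuron-like cells. The 8 fibroblast markers, with Col1a2 highest, Pdgfra at 0 in each library and Clec3b at 0 at 7 days, summed to 647, 810 and 849 CPM. The 6 non-myelinating Schwann markers, none at 0, summed to 1597, 1637 and 1726 CPM, of which Ncam1 alone gave 1131, 1132 and 1087 CPM. Ncam1 was at a like level in SGC-like cells with Serpina3n (1146, 1082 and 1117 CPM) and without it (1127, 1164 and 1058 CPM). The 8 macrophage markers, with Lyz2 highest and Aif1 at 0 in the naive library, summed to 12.0, 25.5 and 75.9 CPM, and the 5 neutrophil markers to 6.36, 126 and 7.29 CPM, with S100a9 highest at 7 days and none at 0. The part of RNA from these classes in the Serpina3n of SGC-like cells was not tested. The median mitochondrial share of SGC-like cells was 13.1%, 14.99% and 15.5%, and its part in the result was not tested. A stricter filter, of 1000 genes and 10% mitochondrial UMIs, left 141, 21 and 37 SGC-like cells, in which the log2 ratios over naive were 1.79 (0.71 to 2.82) and 1.73 (0.76 to 2.68). Under that filter 10.6%, 33.3% and 21.6% of SGC-like cells had a UMI, so the order of the 7-day and 14-day libraries was not kept, with overlapping intervals of 14.6% to 57.0% and 9.83% to 38.2%.

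In neuron-like cells Serpina3n gave 1109, 1039 and 2286 UMIs, or 130, 161 and 181 CPM, and the ratios over naive were 1.23 (1.13 to 1.34) at 7 days and 1.38 (1.29 to 1.49) at 14 days. These ratios were smaller than those in SGC-like cells, but the gene was chosen by its level in SGC-like cells, which favours that order. The difference between the classes was not tested. Without the 5 cells with the most Serpina3n in each library the log2 ratio at 7 days was 0.11 (-0.03 to 0.25), an interval that includes 0. The 8 SGC markers, with Fabp7 highest and none at 0, summed to 360, 579 and 526 CPM in neuron-like cells, and the 8 macrophage markers, with Lyz2 highest and none at 0, to 5.52, 24.9 and 19.03 CPM. Neuron-like cells with fewer than 3 Fabp7 UMIs had 132 (116 to 149), 104 (79.8 to 134) and 229 (194 to 268) CPM of Serpina3n in 47, 37 and 27 cells, so the 7-day direction turned in them, with overlapping intervals. Those with 3 or more had 130, 167 and 178 CPM in 82, 79 and 120 cells, and the part of the markers was not tested. This limit also splits the cells by depth, with medians of 24121, 2653 and 2070 UMIs below it. From 3 Fabp7 UMIs up the medians were 82958.5, 56399 and 88922.5 UMIs. The share of neuron-like cells with a UMI was 79.1% (71.0% to 85.7%), 60.3% (50.8% to 69.3%) and 81.6% (74.4% to 87.5%), at median depths of 63705, 9329 and 78419 UMIs. The lower share at 7 days goes with a lower depth, and no order was read from it, since the CPM goes the other way. After thinning to 2000 UMIs the shares were 21.1%, 21.2% and 28.4%. Nearly all deep neurons carried the transcript, with a UMI in 90 of 96, 52 of 52 and 109 of 110 neuron-like cells of at least 20000 UMIs. Among those deep cells Serpina3n ranged up to 576, 534 and 1130 CPM per cell, with medians of 86.7, 107 and 145 CPM. As a mean over cells of UMIs per 10000, the log2 ratio over naive was -0.10 at 7 days and 0.48 at 14 days, so the direction at 7 days depends on how cells are weighted. With each cell with a UMI counted once over all UMIs of the class, the log2 ratios were -0.15 (-0.61 to 0.31) and -0.34 (-0.73 to 0.06). These say little about level, since most neuron-like cells held a UMI and depth differed.

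Neuron-like clusters differed from each other in Serpina3n. The itch-related genes Nppb and Il31ra, with Sst, led the cluster that was the highest in the naive and 7-day libraries, with 279 (237 to 325), 324 (274 to 380) and 248 (221 to 276) CPM in 7, 4 and 15 cells, all with a UMI. The cluster led by Tac1 and Adcyap1, neuropeptide genes of peptidergic nociceptors, had 192 (170 to 215), 210 (186 to 236) and 287 (270 to 305) CPM in 42, 24 and 55 cells, and its 14-day ratio over naive was 1.497 (1.31 to 1.71). At 7 days 5 of its 24 cells held 84.8% of the UMIs, and as a mean over cells of UMIs per 10000 its values were 1.39, 1.13 and 2.36, so the 7-day direction turned. In the cluster led by Mrgprd, a receptor of non-peptidergic nociceptors, the values were 127, 149 and 111 CPM in 44, 62 and 35 cells, and 1.41, 0.890 and 0.827 as a mean over cells, so here too the 7-day direction turned. Lowest in the 14-day library was the cluster led by Th and C1ql4, typical of low-threshold C fibres, at 59.3 CPM, after 68.9 and 107 CPM, in 34, 10 and 13 cells. By pooled CPM, Serpina3n at 14 days was thus, against the naive library, higher in Tac1-led cells, lower in Mrgprd-led cells with a ratio of 0.868 (0.759 to 0.992), and within counting error in Th-led cells at 0.861 (0.657 to 1.12) and Nppb-led cells at 0.889 (0.733 to 1.08). No cluster was led by Nefh or Pvalb, markers of large-diameter neurons, and the 5 markers of that list summed highest in the Tac1-led cluster, at 1032 CPM.

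The fifth neuron-like cluster was led by Npy and Nts, with the injury-response genes Sprr1a, Gal and Sox11 among its leading genes. It held 2, 16 and 29 cells, with Serpina3n at 23.3 (6.36 to 59.8), 107 (88.5 to 129) and 169 (153 to 185) CPM. The naive value rests on 4 UMIs. Neurons with a UMI of the injury genes Atf3 or Sprr1a had 124, 166 and 165 CPM in 26, 69 and 74 cells, and neurons without either had 133, 146 and 206 CPM in 103, 47 and 73 cells. At 14 days the pooled level was lower with these genes, but 5 of the 73 cells without them held 36.2% of their UMIs. As a mean over cells of UMIs per 10000 the direction turned, with 1.91 with the injury genes and 1.601 without, so no order was read from these values. Because the makeup of the neuron-like class differed between libraries (Mrgprd-led cells were 34.1%, 53.4% and 23.8% of it, Tac1-led cells 32.6%, 20.7% and 37.4%), the clusters were also weighted equally, without the Npy-led one, which gave a log2 ratio of 0.08 at 14 days. With a gate of markers on each cell in place of clusters, which took 106, 153 and 79 cells, it was 0.15 (-0.01 to 0.31) at 7 days and 0.02 (-0.12 to 0.16) at 14 days, both with 0 in the interval.

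Non-myelinating Schwann-like cells, which ensheathe thin axons and were led by Scn7a, had 21, 26 and 173 Serpina3n UMIs, or 70.1, 102 and 226 CPM. At 7 days the ratio over naive was 1.45 (0.784 to 2.71), within counting error, and at 14 days it was 3.23 (2.05 to 5.35). The 7-day log2 ratio depends on the cell filter, with 1.04 (0.25 to 1.87) without a filter and -0.06 (-1.69 to 1.35) with the stricter one, against 0.54. At 14 days it was 2.31 (1.67 to 3.02) without a filter, against 1.69. Their share of cells with a UMI was 12.3% (7.59% to 18.6%), 17.8% (10.9% to 26.7%) and 28.2% (22.2% to 34.9%) at median depths of 1817, 2272 and 2824 UMIs, and after thinning, which left 57, 68 and 152 cells, 8.45%, 13.5% and 24.8%. At 14 days the 5 cells with the most Serpina3n held 37.6% of the total. With each cell with a UMI counted once over all UMIs of the class, the 14-day log2 ratio was 0.28 (-0.48 to 1.11). This divisor grows with depth, so the value is not a ratio of the shares of cells with a UMI. Several marker lists moved beside Serpina3n in these cells. The 8 SGC markers, with Fabp7 highest and none at 0, summed to 2835, 3103 and 2176 CPM, and the 6 markers of the class itself, with Scn7a highest and none at 0, to 6763, 6610 and 4683 CPM. The 10 neuron markers, with Tubb3 highest and 1, 3 and 0 at 0, summed to 124, 317 and 381 CPM. The 8 fibroblast markers, with Col1a2 highest and 4, 4 and 1 at 0, summed to 2411, 2451 and 3718 CPM. The 8 macrophage markers, led by Cd68 and then Lyz2, with 5, 2 and 1 at 0, summed to 16.7, 39.1 and 99.5 CPM. The part of these lists in the Serpina3n level was not tested. Non-myelinating Schwann-like cells with at least 3 Fabp7 UMIs had 51.5, 86.1 and 227 CPM of Serpina3n and those with fewer 76.6, 109 and 226 CPM, with overlapping intervals in each library.

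Fibroblast-like cells had 11, 37 and 126 Serpina3n UMIs, or 39.0, 125 and 149 CPM. Their ratio over naive was 3.21 (1.602 to 6.97) at 7 days, with an interval that overlaps with that of non-myelinating Schwann-like cells, and at 14 days it was 3.81 (2.06 to 7.82). The share with a UMI was 11.8%, 28.2% and 33.9% at median depths of 2671, 3365 and 4199 UMIs, and 8.88%, 16.7% and 21.8% after thinning. Nearly all of these UMIs lay in the cluster led by A2m and Lum (63.1, 155 and 183 CPM), and the cluster led by Lypd2 and H19 gave 1, 1 and 7. Fabp7 in fibroblast-like cells was 53.2, 44.0 and 427 CPM, and the 8 SGC markers summed to 745, 846 and 1232 CPM, with Slc1a3 highest and Kcnj10 at 0 in the naive library. Other lists moved as well, namely the 8 endothelial markers (167, 288 and 468 CPM, Cdh5 highest, 4, 0 and 0 at 0), the 10 neuron markers (60.3, 132 and 172 CPM, Tubb3 highest, 3, 2 and 0 at 0) and the 6 non-myelinating Schwann markers (366, 535 and 646 CPM, Scn7a highest, 1, 1 and 0 at 0). Their part in the Serpina3n level was not tested. Without the cells that held at least 3 Fabp7 UMIs, Serpina3n was 39.3, 125 and 132 CPM. With each cell with a UMI counted once over all UMIs of the class, the log2 ratios were 0.93 (-0.23 to 2.19) at 7 days and 0.97 (-0.01 to 2.10) at 14 days. Their intervals include 0, and they are not ratios of the shares of cells with a UMI.

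Apart from red blood cell-like barcodes, which are given in the next paragraph, the other classes had few or no Serpina3n UMIs. In small classes such counts set only a wide limit on the level. Myelinating Schwann-like cells, the largest class with 1227, 999 and 1464 cells, had 3, 17 and 24 UMIs, or 0.856 (0.177 to 2.50), 4.15 (2.42 to 6.64) and 4.05 (2.60 to 6.03) CPM, and 0.244%, 1.001% and 1.64% of their cells had a UMI. This is near the 0.824, 2.16 and 3.80 CPM of the endothelial, mural and immune-like cells pooled. At 7 days 1 myelinating Schwann-like cell held 7 of the 17 UMIs, and 5 cells held 70.6% of them. Endothelial-like cells had 2, 0 and 11 UMIs, where 0 UMIs at 7 days allow up to 1.90 CPM (the limit that 3 UMIs set). Smooth muscle-like cells had 0, 0 and 1 UMIs, pericyte-like cells 0, 1 and 0, neutrophil-like cells 0, 1 and 0, and T or NK-like cells 0, 0 and 1. Macrophage-like cells had 0 UMIs in 68 naive cells, which allows up to 18.4 CPM, and 5 UMIs at both 7 and 14 days, at 5.06 and 5.02 CPM. B cell-like cells had 0 UMIs in all 3 libraries, which in 13, 5 and 19 cells allows up to 132, 187 and 52.2 CPM. In the naive library 0 UMIs allow up to 136 CPM in T or NK-like cells and 78.6 CPM in neutrophil-like cells. These naive limits lie above the 41.5 CPM of SGC-like cells. Among the named glial classes, Serpina3n thus separated SGC-like and non-myelinating Schwann-like cells from myelinating Schwann-like cells, whose intervals lay below theirs in every library. An unnamed cluster led by Csrp2 and Mpp6, nearest by markers to myelinating Schwann cells, had 0, 0 and 4 UMIs in 203, 168 and 213 cells.

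Serpina3n was also set beside the SGC transcript Fabp7 in each class. Per 1000 Fabp7 UMIs there were 4.92, 10.8 and 24.6 Serpina3n UMIs in SGC-like cells. The proportion was 593, 423 and 528 in neuron-like cells, 57.7, 87.8 and 310 in non-myelinating Schwann-like cells, and 733, 2846 and 348 in fibroblast-like cells. It was 14.0, 70.8 and 49.8 in myelinating Schwann-like cells and 12.8, 33.5 and 44.7 in the pooled endothelial, mural and immune-like cells, from 3, 17 and 24 and from 2, 7 and 18 Serpina3n UMIs. All of these were above the proportion in SGC-like cells, and the source of Serpina3n in them was not tested. Red blood cell-like barcodes, 6, 11 and 8 in number, held 44.3, 47.3 and 127 CPM of Serpina3n together with 9094, 5938 and 7208 CPM of Fabp7, a proportion of 4.87, 7.97 and 17.6. These values rest on 2, 6 and 9 Serpina3n UMIs, and no level of red blood cells was read from them.

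Among all genes tested in SGC-like cells, Serpina3n stood near the top by ratio, as the way it was chosen sets. A gene was called higher or lower when its CPM, with a pseudocount of 1, differed at least 2-fold and 20% or more of the cells on its higher side held a UMI. At 7 days 4 of 5649 genes were higher (0.0708%), which were Dbp, Serpina3n, Nr1d1 and 5930430L01Rik, and 11 were lower (0.195%). At 14 days 7 of 5508 genes were higher (0.127%), with Serpina3n first, followed by the clock genes Dbp and Nr1d1, then Fgl2, Cirbp, Jup and the clock gene Per3, and 18 were lower (0.327%). Serpina3n, Dbp and Nr1d1 were the 3 genes called higher in both injured libraries, and 9 were called lower in both. With a pseudocount of 10 CPM 0 genes were called higher at 7 days, so the 7-day calls of Serpina3n, Dbp and Nr1d1 were lost. At 14 days 5 genes were called higher with that pseudocount, and Serpina3n kept its call and rank of 1, with a log2 ratio of 1.83. Its ratio at 7 days, 0.96 in log2, then fell just short of 2-fold. The same rule called 65 of 2820 genes higher in non-myelinating Schwann-like cells at 14 days (2.3%), where Serpina3n ranked 16, and 106 of 3732 in fibroblast-like cells (2.84%), where it ranked 8. In neuron-like cells, with 321 of 11258 genes higher, Serpina3n was not called and ranked 1398.

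Genes that go with the detection of Serpina3n were sought by comparing SGC-like cells with and without a Serpina3n UMI within each library, 119 against 655, 142 against 341 and 295 against 404 cells. Cells with Serpina3n were deeper, with medians of 7908, 9766 and 8828 UMIs against 4754, 6215 and 5825. Tested were 5422 genes with a UMI in 20% or more of the cells with or of the cells without Serpina3n in each library. Of these, 47 were at least 1.5-fold higher by CPM in cells with Serpina3n in all 3 libraries (0.867%), and 21 at least 1.5-fold lower (0.387%). A called gene also needed a UMI in 20% or more of the cells on its higher side. The 10 highest were Crym, Serping1, Ahr, 2900052N01Rik, Slc1a2, Cspg5, Nrarp, Aqp4, C4b and Sfrp5. They hold the glutamate transporter Slc1a2 and the water channel Aqp4, both also astrocyte genes, the Notch-regulated Nrarp, and the complement-related Serping1, which encodes the C1 inhibitor, and C4b. The 10 lowest were Pou3f1, Pde10a, Kcna1, Col6a3, Smtn, Ank3, Adam23, Egr3, Cyth3 and Cux1, of which Pou3f1 and Egr3 encode transcription factors. Several genes of either list, such as 2900052N01Rik, Crym, Aqp4, Egr3 and Pde10a, are among the leading genes of SGC-like clusters, which differ in Serpina3n, so the comparison was also made within clusters.

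Within the clusters 3 of these genes passed both limits, of fold and of share of cells, in all 3 libraries. Ahr, the aryl hydrocarbon receptor, was at 65.9, 95.8 and 84.9 CPM in SGC-like cells with Serpina3n and at 28.6, 45.1 and 42.3 CPM in those without, and its log2 ratio within clusters was 0.88, 0.68 and 0.80. C4b, a complement component, was at 237, 205 and 315 CPM with and 110, 106 and 165 CPM without Serpina3n, and its log2 ratio within clusters was 0.63, 1.03 and 1.14. Col6a3, a collagen chain, was at 36.7, 43.6 and 50.9 CPM with and 93.1, 92.5 and 107 CPM without, with -0.86, -0.67 and -0.60 within clusters. Pou3f1 was past 1.5-fold within clusters as well, with -1.05, -1.58 and -1.14, but had a UMI in 21.5%, 16.1% and 19.8% of the cells without Serpina3n there, under the limit of 20% in both injured libraries. Serping1 came close, with 0.92, 0.54 and 1.17 within clusters. Part of the difference was inside clusters for Pde10a (-0.77, -0.76 and -0.54) and Egr3 (-0.39, -0.96 and -0.73) too, and for Crym in the naive and 7-day libraries (1.17 and 0.78) but not at 14 days (-0.02). The remaining 45 of the 47 and 20 of the 21 did not pass within clusters. Against an equal number of cells nearest in depth 15 genes were higher, all of them among the 47, and 12 were lower, of which 11 were among the 21, but at 14 days depth was not matched, with medians of 8828 and 7081 UMIs. In pairs of cells within 10% of each other's depth, 118, 134 and 265 in number, 15 genes were higher, 14 of them among the 47, and 15 were lower, all among the 21, with medians of 8014 and 7479 UMIs at 14 days. Ahr, C4b, Serping1, Col6a3 and Pou3f1 were among the genes that passed in these pairs.

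**Figure D4:**
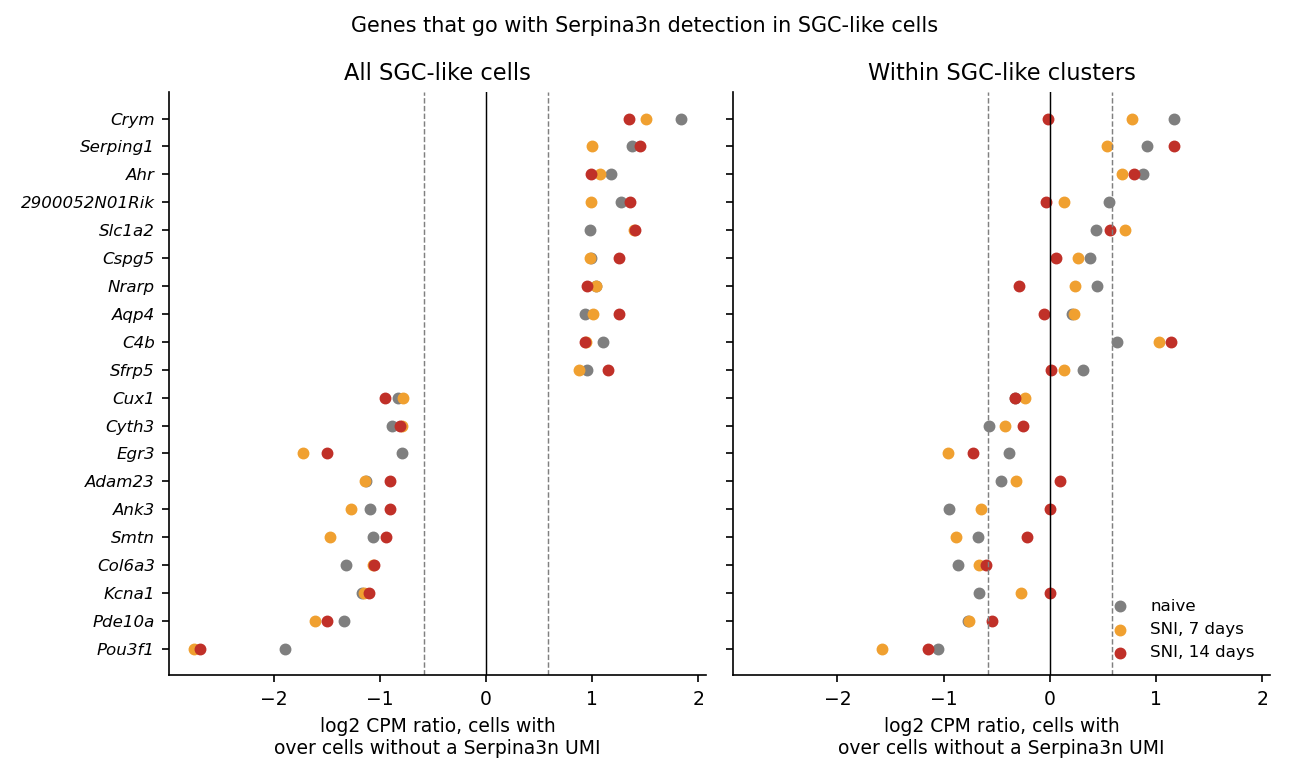
Log2 ratio of CPM (x axis) in SGC-like cells with a Serpina3n UMI over those without, for the 10 highest and 10 lowest genes (y axis), in all SGC-like cells and averaged within clusters, with 1 point per library and no error bars. Dashed lines mark 1.5-fold; within clusters Ahr, C4b, Col6a3 and Pou3f1 keep all 3 points beyond them.

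Marker lists differed between SGC-like cells with and without Serpina3n, with the same direction in all 3 libraries for some lists and not for others. The 8 SGC markers summed to 16485, 15076 and 13164 CPM with and 11764, 11800 and 9553 CPM without Serpina3n, most of the difference coming from Fabp7 (12124, 10512 and 8832 against 7474, 6993 and 5253 CPM). Within clusters the log2 ratio of Fabp7 was 0.32, 0.03 and -0.11, against 0.70, 0.59 and 0.75 over the class, so that in the injured libraries its difference lay largely between clusters. The 5 neutrophil markers, led by S100a8 in the naive and S100a9 in the injured libraries, were at 7.53, 316 and 6.32 CPM with and 6.06, 5.44 and 8.26 CPM without it. The 8 macrophage markers were at 3.77, 27.03 and 105 CPM with and 14.1, 24.5 and 47.8 CPM without it, with Lyz2 highest in the injured libraries and 5 of 8 at 0 in naive cells with Serpina3n. The 5 red blood cell markers, led by Hbb-bs, were at 245, 49.1 and 37.9 against 52.6, 58.7 and 52.0 CPM. By their sums, higher with Serpina3n in all 3 libraries were the 10 neuron markers (none at 0, led by Nefl and then Tubb3), at 171, 175 and 217 against 130, 156 and 189 CPM, and the 7 pericyte markers (Pdgfrb highest, 4, 3 and 1 at 0), at 46.1, 28.9 and 43.9 against 28.9, 21.4 and 30.3 CPM. So were the 6 smooth muscle markers (Myl9 highest, 2 at 0 in each), at 45.2, 32.6 and 38.6 against 39.5, 26.8 and 20.99 CPM. Not all members went this way, with 7, 7 and 5 neuron markers, 2, 3 and 4 pericyte markers and 3 smooth muscle markers in each library higher. Among the lists given here, lower sums in all 3 were found for the 8 fibroblast markers (Col1a2 highest, 2, 2 and 1 at 0), at 496, 729 and 787 against 686, 861 and 910 CPM. The 8 endothelial markers (Cldn5 highest, 1, 0 and 0 at 0) were lower too, at 11.3, 18.4 and 27.7 against 20.9, 38.1 and 31.3 CPM. Of these, 3 fibroblast markers in each library and 0, 2 and 4 endothelial markers were higher with Serpina3n. The part of these lists in the co-detection was not tested.

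The serpins and their target proteases were looked at next, by lists fixed for the purpose. Of 11 Serpina3 genes, Serpina3n included, 10 were in the count files and 7 had at least 1 UMI. Apart from Serpina3n, Serpina3g was the abundant one with 2206 UMIs, at 92.7, 83.0 and 63.9 CPM in neuron-like cells and 90.8, 70.2 and 159 CPM in T or NK-like cells. In SGC-like cells Serpina3g was at most 1.16 CPM (6, 3 and 1 UMIs), so the paralog and Serpina3n had different patterns. Of 15 other serpins, 13 had a UMI and 4 were tested in SGC-like cells. In the injured libraries 0 of these were called in either direction. The shares of all genes called (0.0708% higher and 0.195% lower at 7 days, 0.127% and 0.327% at 14 days) would give this for so few. The median log2 ratio of the tested serpins was -0.12 and 0.04, against -0.01 and 0.00 for all genes tested. Serping1 had 43.4, 45.7 and 65.3 CPM in SGC-like cells. Of 8 target proteases 7 had a UMI but 0 reached the limit for a test in SGC-like cells. Elane, neutrophil elastase, gave 59 UMIs in all, 57 of them in neutrophil-like cells at 14 days, and Gzmb, granzyme B, gave 17, of which 13 were in T or NK-like cells at 14 days. In SGC-like cells Elane gave 1 UMI, in a 14-day cell that also held Serpina3n, and Gzmb gave 0.

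Interleukin 6-type cytokines signal through the shared receptor chain gp130, the product of Il6st, and through Stat3, and they are known inducers of acute-phase genes such as the Serpina3 family. Of 19 genes of this pathway, 7 were tested in SGC-like cells and 0 were called, as the shares of all genes called (0.0708% higher and 0.195% lower at 7 days, 0.127% and 0.327% at 14 days) would give for so few. Their median log2 ratio was 0.13 and then 0.27, against -0.01 and 0.00 for all genes, and at 14 days they ranged from -0.17 (Lifr) to 0.76 (Cebpd). The ligand Il6 had 0 UMIs in SGC-like cells, and all of its 15 UMIs were in neuron-like cells of the injured libraries. Among the receptors, Il6st was at 194, 204 and 234 CPM and Osmr at 6.36, 11.2 and 15.6 CPM in SGC-like cells. Stat3 was at 140, 170 and 200 CPM, Cebpd, a transcription factor of the acute-phase response, at 71.2, 82.4 and 122 CPM, and the feedback inhibitor Socs3 at 15.2, 15.7 and 31.1 CPM. The other tested genes were Lifr at 171, 174 and 152 CPM, Cntfr at 192, 210 and 176, Jak1 at 116, 114 and 121, and Junb at 45.9, 66.9 and 66.7. With detection of Serpina3n, 1 of 8 tested genes of the pathway was among the 47 (0.867% of all tested genes), namely Cebpd, with log2 ratios of 0.89, 0.65 and 1.004 between cells with and without it, but 0.63, 0.29 and 0.73 within clusters, where it did not pass. In all 3 libraries 4 of the 8 were above 0 and 0 were below, against 1121 (20.7%) and 1605 of 5422 genes, a difference that was not tested. The other fixed lists gave 2 of 4 other serpins, 3 of 4 reactive astrocyte genes and 1 of 5 glucocorticoid response genes above 0 in all 3 libraries. Each of these lists had 1 gene below 0 in all 3. Beside Cebpd, the genes of the gp130 and Stat3 pathway above 0 were Stat3 (0.80, 0.38 and 0.39), Cntfr (0.79, 0.40 and 0.70) and Lifr (0.62, 0.45 and 0.25). Within clusters Stat3 had 0.59, 0.32 and 0.41, whereas Cntfr and Lifr were below 0 at 14 days (-0.15 and -0.24). Il6st (0.01, -0.10 and 0.19) and Junb (-0.07, 0.00 and -0.25) were near 0 or of mixed sign. Osmr, below the limit of 20% of cells, had a UMI in 12.6%, 13.4% and 16.3% of SGC-like cells with Serpina3n and in 1.83%, 4.69% and 5.94% of those without. Since the former were deeper, its log2 ratio by CPM is given too, at 2.26, 1.12 and 1.24, and within clusters 2.00, 0.77 and 1.51.

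Glucocorticoids are another known inducer of acute-phase serpins. Of 11 response genes SGC-like cells allowed a test of 6 at 7 days and of 5 at 14 days, and 0 were called, which the shares over all genes would give here too. Their median log2 ratios were -0.15 and -0.29, with -0.01 and 0.00 for all genes. At 14 days they ranged from -0.49 for Tsc22d3, at 112, 99.0 and 79.7 CPM, to 0.50 for the receptor gene Nr3c1, at 91.0, 108 and 129 CPM. Of 12 genes that mark reactive astrocytes, 4 were tested and 0 called, again as the shares over all genes would give, with medians of 0.13 and 0.31 beside the same -0.01 and 0.00. Vim was at 2408, 2603 and 2922 CPM and Cp, ceruloplasmin, at 143, 160 and 219 CPM. Gfap, the marker that the study examined, was at 4.44, 7.62 and 12.9 CPM (23, 32 and 74 UMIs), far below Serpina3n in each library as counts of 3′ ends. Gfap was not among the tested genes, since too small a share of SGC-like cells held a UMI of it. Its CPM was higher in both injured libraries than in the naive one, from few UMIs, and this difference was not tested. The paper reports no significant rise of GFAP in SGCs after injury in these data. Gfap had a UMI in 7.56%, 9.15% and 11.9% of SGC-like cells with Serpina3n and in 1.53%, 1.17% and 3.71% of those without. Cells with Serpina3n were deeper, which raises such shares. By CPM the log2 ratio of Gfap was 1.95, 2.83 and 1.43, and within clusters 1.75, 3.05 and 1.87, from few UMIs. The SGC genes Fabp7 and Glul, also named by the study, were at 8426, 8356 and 7024 CPM and at 678, 572 and 468 CPM, neither of them called.

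Across classes, the genes with the pattern most like Serpina3n were ranked by Pearson r of log2 CPM over 29 points of 10 classes and 3 libraries, each of at least 30 cells, among 10969 genes. The points share libraries and depths, so r is a description. Gria4, a glutamate receptor subunit, was first with r = 0.89, followed by the cell adhesion molecule Chl1 (0.88), the receptor subunit Cntfr (0.87), and Cobl and Srcin1 (0.86 each). Cdh10, Flrt3, Igsf3, Dclk1 and Sema3e came next with r from 0.85 to 0.84. In each library these genes were higher in SGC-like, neuron-like, non-myelinating Schwann-like and fibroblast-like cells than in myelinating Schwann-like, endothelial-like and macrophage-like cells. Some values in the former were low, with Sema3e at 7.10, 3.38 and 3.54 CPM in fibroblast-like cells. Gria4 was at 3.93 CPM in non-myelinating Schwann-like cells at 14 days. In myelinating Schwann-like cells Flrt3 was at 14.0, 11.0 and 19.8 CPM and Igsf3 at 20.3, 13.4 and 20.6 CPM. Within classes, across libraries, the r of the ranked genes with Serpina3n was lower, from -0.01 for Cobl to 0.50 for Cdh10. In SGC-like cells Gria4 was at 27.4, 20.5 and 21.4 CPM, whereas Chl1 was at 278, 344 and 452, Flrt3 at 39.5, 39.3 and 58.9, and Sema3e at 27.2, 34.8 and 40.3 CPM, each under 2-fold between libraries.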

How the data were processed

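UMI counts deposited by the authors come from Cell Ranger 3.0.2 (mm10, per the submitters' processing notes). They are without normalization and limited to barcodes called as cells. Cells with at least 500 genes and at most 20% mt- UMIs were kept. Doublets marked by Scrublet in scanpy 1.11.5 (expected 5%) were left out, 0.920%, 1.19% and 0.758% of the cells that passed. Counts were scaled to 10000 per cell, and 2000 variable genes without Serpina3n gave 30 principal components, 15 nearest neighbours and clusters from leidenalg 0.10.2 at resolution 1 (also scikit-learn 1.9.0, scipy 1.17.1, numpy 2.4.6, python 3.11.15).

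A cluster took the name of the class with at least 3 markers in at least 20% of its cells at 1.5-fold the level of other cells and a mean fold of at least 2. The mean fold was set after clusters were seen and after Serpina3n had been chosen by its measured values. This limit left unnamed the clusters led by Csrp2 (6.50%, 6.34% and 5.61% of cells) and Cd209a (0.448%, 0.566% and 1.05%). A cluster led by Sprr1a and Sox11 stayed unnamed for low depth.

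Besides Serpina3n and the genes of the fixed lists, named genes are those past the 2-fold rule of size, the 10 highest and 10 lowest genes by detection, and the 10 of highest r, as described above. Where over 10 passed, the count is given. Of 31053 gene IDs, 30934 were in the annotation (GENCODE vM21). With 1 library per condition no test was run. Intervals are at 95%. The steps that call genes were tested on simulated data. The members and lists were chosen with earlier results of these data known. Alternatives for the filter, doublets, resolution, marker gate, totals, weighting and thresholds were planned, and those on the interferon-led cluster, the weights of clusters, the Sprr1a-led cluster, pairs of cells within 10% of depth and the Schwann and fibroblast ratios were added after seeing the data.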

Additional observations from a re-analysis of the deposited data

Results flagged for a closer look

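In the 14-day library 3 neuron-like clusters had a Serpina3n log2 CPM ratio over naive opposite in sign to that of SGC-like cells (2.06). It was -0.20 in the cluster led by Mrgprd and Gm765, -0.22 in the cluster led by Th and C1ql4, and -0.17 in the cluster led by Nppb and Il31ra, each with 1 library per condition, and the difference was not tested. The intervals of the Th-led and Nppb-led clusters include 0. The sign holds for pooled CPM, and as a mean over cells of UMIs per 10000 it turned in the Th-led cluster (0.674 in the naive library, 0.758 at 14 days) and the Nppb-led cluster (2.71 and 2.77), but not in the Mrgprd-led cluster (1.41 and 0.827).

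Barcodes that failed the cell filter, 596, 599 and 1080 in number, are outside the comparisons. Their Serpina3n level was 61.7 CPM in the naive library, 113.1 CPM at 7 days and 177.4 CPM at 14 days, so both injured libraries lay above the naive one there too, and the difference was not tested.

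An unnamed cluster led by Sprr1a and Sox11 held 2, 113 and 1 cells. At 7 days it had 185.2 CPM of Serpina3n (124 to 266) from 29 UMIs in 25 cells, above the 161 CPM of neuron-like cells but with an interval that includes it. The difference was not tested, and a cluster found in a single library may be particular to that library.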

How the results depend on the processing

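With 1 library per condition, no paired analysis could be run. The Serpina3n log2 ratio over naive in SGC-like cells was above 0 in 12 of 12 alternatives at 7 days (0.56 to 1.79) and in 12 of 12 at 14 days (1.16 to 2.33), with intervals above 0 in 10 of the 10 that have one at each time. Values that moved are given by setting, and the cause was not tested. With at least 1000 genes and at most 10% mt- UMIs, the ratio in SGC-like cells was 1.79 at 7 days and 1.73 at 14 days, and the share with a UMI 10.6% in the naive library, 33.3% at 7 days and 21.6% at 14 days. Thinned to 2000 UMIs, the shares were 6.69%, 11.4% and 21.2%, and for 2 or more UMIs 5.68%, 14.7% and 26.5%. With each cell with a UMI counted once over all UMIs of its class, the ratios at 7 and 14 days were 0.56 and 1.16 in SGC-like cells. By this measure they were -0.15 and -0.34 in neuron-like cells (intervals that include 0), and at 14 days 0.28 in non-myelinating Schwann-like and 0.97 in fibroblast-like cells. Added later, leaving out the interferon-led cluster gave 2.33 at 14 days, and weighting SGC-like clusters as in the naive library gave 1.40 at 7 days. In neuron-like cells a marker gate gave 0.15 at 7 days and 0.023 at 14 days, leaving out the 5 highest cells 0.11 at 7 days, the mean over cells of UMIs per 10000 -0.10 at 7 days, and, added later, equal weights of clusters 0.080 at 14 days. Genes that go with detection numbered 2 higher and 1 lower within clusters, and 15 and 12 against cells nearest in depth, where depth was not matched at 14 days. In pairs within 10% of depth, added later, they numbered 15 and 15. For genes past 2-fold in SGC-like cells, a pseudocount of 10 CPM gave 0 higher at 7 days and 9 lower at 14 days. A limit of 10% of cells gave 18 lower at 7 days and 25 higher and 36 lower at 14 days.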

Other observations

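Beside Serpina3n, genes that the 2-fold rule called in SGC-like cells included the following, which were picked after their values were seen and not tested as a group. Higher at 14 days were the clock-controlled transcription factor Dbp (23.5, 52.4 and 71.4 CPM in the naive, 7-day and 14-day libraries), the clock repressor Nr1d1 (42.8, 88.8 and 106 CPM) and Per3 (53.4 CPM in the naive library and 108 CPM at 14 days). Lower at 14 days was Arntl, which encodes the clock activator BMAL1, at 54.2 CPM in the naive library and 23.6 CPM at 14 days. The time of day at which the mice were killed is not stated, and its part in these values was not tested.

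Genes called lower in both injured libraries included the interferon-response genes Ifi27l2a, Isg15 and Bst2, and no list of such genes was tested. Ifi27l2a was at 505, 117 and 123 CPM, Isg15 at 182, 62.6 and 37.0 CPM, and Bst2 at 116, 30.5 and 29.2 CPM. The SGC-like cluster led by Ifit3b and Ifi27l2a made up 21.1%, 7.66% and 3.86% of SGC-like cells, and its part in these values was not tested. The chaperone gene Hspa1a was at 172, 82.1 and 70.5 CPM.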
